A study of Rattus norvegicus with 13 samples.

Results

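The oligodendrocyte lineage and early myelin genes examined here are *Pdgfra*, *Cspg4*, *Olig1*, *Olig2*, *Sox10*, *Gpr17*, *Bcas1*, *Cnp* and *Mbp*. They were taken from the table by gene name, although the list itself was drawn up with earlier results of these data known. Where a name had several rows, the rule would have taken the row with the highest mean. All 9 names were present, each on 1 row, so that 9 of the 14716 deposited rows were followed. RNA-Seq was performed on the posterior ventricular zone (VZ), the layer of progenitor cells lining the ventricle, which was laser captured from male Long Evans rats on postnatal day 2 (PN2). Control pups (n = 7) were the euthyroid offspring of dams that drank vehicle. PTU exposed pups (n = 6) were the hypothyroid offspring of dams that drank 3 ppm propylthiouracil (PTU), an inhibitor of thyroid hormone synthesis, from early pregnancy onward. Each pup came from its own litter and both groups had the same strain, sex and age. The exposure was systemic and maternal, and every cell type within the captured strip contributed RNA. Fewer cells of a type and less RNA per cell cannot be told apart in such bulk samples.

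Oligodendrocytes are the myelin forming cells of the central nervous system. They arise from progenitors near the ventricle, pass through a migrating and dividing precursor stage marked by *Pdgfra* and *Cspg4*, and are committed under the transcription factors *Olig1*, *Olig2* and *Sox10*. *Gpr17* and *Bcas1* mark newly committed cells that leave the cell cycle, and *Cnp* and *Mbp* encode proteins of the myelin sheath. Thyroid hormone is a classical timing signal for the passage of precursors into differentiation, and myelin genes including *Mbp* are known targets of its receptors. Most myelination in the rat brain follows PN2, so that the myelin genes are read here at the very beginning of their expression.

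RefSeq promoter windows (build GRCr8, 250 bases before to 50 bases after an annotated start) were found for 6 of the 9 genes. There were 7 windows, since *Mbp* had 2 starts. The windows of *Pdgfra*, *Cnp* and *Mbp* are shown because they come from the receptor at the entry of the lineage and from the myelin genes at its end, and because the 3 windows that held any motif searched were theirs. The upstream *Mbp* window, which held none, is shown for contrast. Both strands were searched for CANNTG, the core bound by basic helix-loop-helix factors such as OLIG1 and OLIG2, for ACAAAG and ACAATG, cores bound by SOX factors such as SOX10, and for AGGTCA, the half-site of thyroid hormone receptors. Capitals mark every match, and letters run 5′ to 3′ on the strand of the gene.
*Pdgfra*, chr14:33408467-33408766, minus strand: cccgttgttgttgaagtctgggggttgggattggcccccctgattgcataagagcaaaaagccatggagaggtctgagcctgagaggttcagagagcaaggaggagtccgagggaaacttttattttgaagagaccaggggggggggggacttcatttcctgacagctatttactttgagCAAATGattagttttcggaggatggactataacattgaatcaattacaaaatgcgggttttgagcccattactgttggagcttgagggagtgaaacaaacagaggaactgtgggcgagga
*Cnp*, chr10:86011254-86011553, plus strand: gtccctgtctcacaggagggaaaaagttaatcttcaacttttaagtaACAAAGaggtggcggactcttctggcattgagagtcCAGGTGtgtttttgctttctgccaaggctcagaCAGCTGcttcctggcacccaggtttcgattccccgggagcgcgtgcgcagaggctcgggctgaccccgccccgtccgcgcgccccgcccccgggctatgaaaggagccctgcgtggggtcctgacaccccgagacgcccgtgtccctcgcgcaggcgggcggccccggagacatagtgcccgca
*Mbp*, downstream start, chr18:78209995-78210294, plus strand: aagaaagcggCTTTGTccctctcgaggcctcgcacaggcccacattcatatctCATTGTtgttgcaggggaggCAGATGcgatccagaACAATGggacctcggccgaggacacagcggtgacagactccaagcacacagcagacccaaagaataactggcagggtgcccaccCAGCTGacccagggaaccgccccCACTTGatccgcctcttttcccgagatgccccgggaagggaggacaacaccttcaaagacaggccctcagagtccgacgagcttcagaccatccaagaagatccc
*Mbp*, upstream start, chr18:78130402-78130701, plus strand: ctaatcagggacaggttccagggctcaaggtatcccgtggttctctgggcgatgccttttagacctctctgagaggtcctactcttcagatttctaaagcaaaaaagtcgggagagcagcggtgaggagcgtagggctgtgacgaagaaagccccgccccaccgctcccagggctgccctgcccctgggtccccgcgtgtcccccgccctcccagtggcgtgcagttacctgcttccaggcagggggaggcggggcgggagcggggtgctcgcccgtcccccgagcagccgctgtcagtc

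The *Mbp* window at the downstream start held 3 CANNTG, 1 ACAAAG and 2 ACAATG. The *Mbp* upstream window held none of the 4 motifs. The *Cnp* window held 2 CANNTG and 1 ACAAAG, and the *Pdgfra* window held 1 CANNTG. The windows of *Cspg4*, *Olig2* and *Gpr17* held none of them, and AGGTCA was in none of the 7 windows. Among all 33469 rat promoter windows of the same length, CANNTG was found in 72.1%, ACAAAG in 18.8%, ACAATG in 13.2% and AGGTCA in 16.2%. A match describes letters in a window and not a bound site. The *Mbp* locus is known for transcripts that start far upstream of those for the classical myelin proteins, and the measured *Mbp* row was not assigned to either start.

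Estimated reads per pup ranged from 22.3 to 44.4 M (mega; median 35.2 M in control and 34.3 M in PTU exposed pups), and the 3 highest rows held between 23.9 and 60.1% of all normalized counts of a pup. The normalized counts are read counts divided by a scaling factor of each pup. Progenitor markers were detected in the captured tissue. The summed normalized counts of 9 radial glia markers were 99111 to 138253 for control and 82038 to 110489 for PTU exposed pups. Summed neuron markers reached 125627 in PTU pup 1 and summed choroid plexus markers 142177 in control pup 2. Such sums therefore do not identify the tissue by themselves. All of the 9 lineage genes were detected in every pup. The thinnest measurement was *Mbp* in control pup 5, at about 155 reads, where counting error alone gives an SD of 0.12 on the log2 scale.

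No lineage gene was called different between the groups, although the PTU exposed pups had the higher mean for all 9 of them. With limma on log2(normalized count + 1), 0 of 9 had a Benjamini-Hochberg adjusted p of at most 0.05, and among all 14606 rows tested 0 (0%) did. The count over all rows was not stable, at 179 without PTU pup 2, 7 without control pup 6, 40 with array weights and 18 with the replicate number as a block, whereas that of the 9 genes was 0 in each of these. An unadjusted p under 0.05 was found for 1 of the 9, *Cspg4*, beside 16.3% of all rows tested in either direction and, by direction, 8.11% that were higher and 8.2% that were lower in PTU exposed pups. The group difference was above 0 for 9 of 9, beside 50.7% of all rows tested, with *Cnp* falling just below 0 without PTU pup 5 or PTU pup 6. Their median log2 fold change (PTU over control) was 0.25, against 0.00 over all rows, and the individual values ran from 0.05 for *Cnp* to 0.66 for *Mbp*. The 2 groups overlapped for each of the 9 genes, as they did for all but 0.596% of the rows tested.

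**Figure D1:**
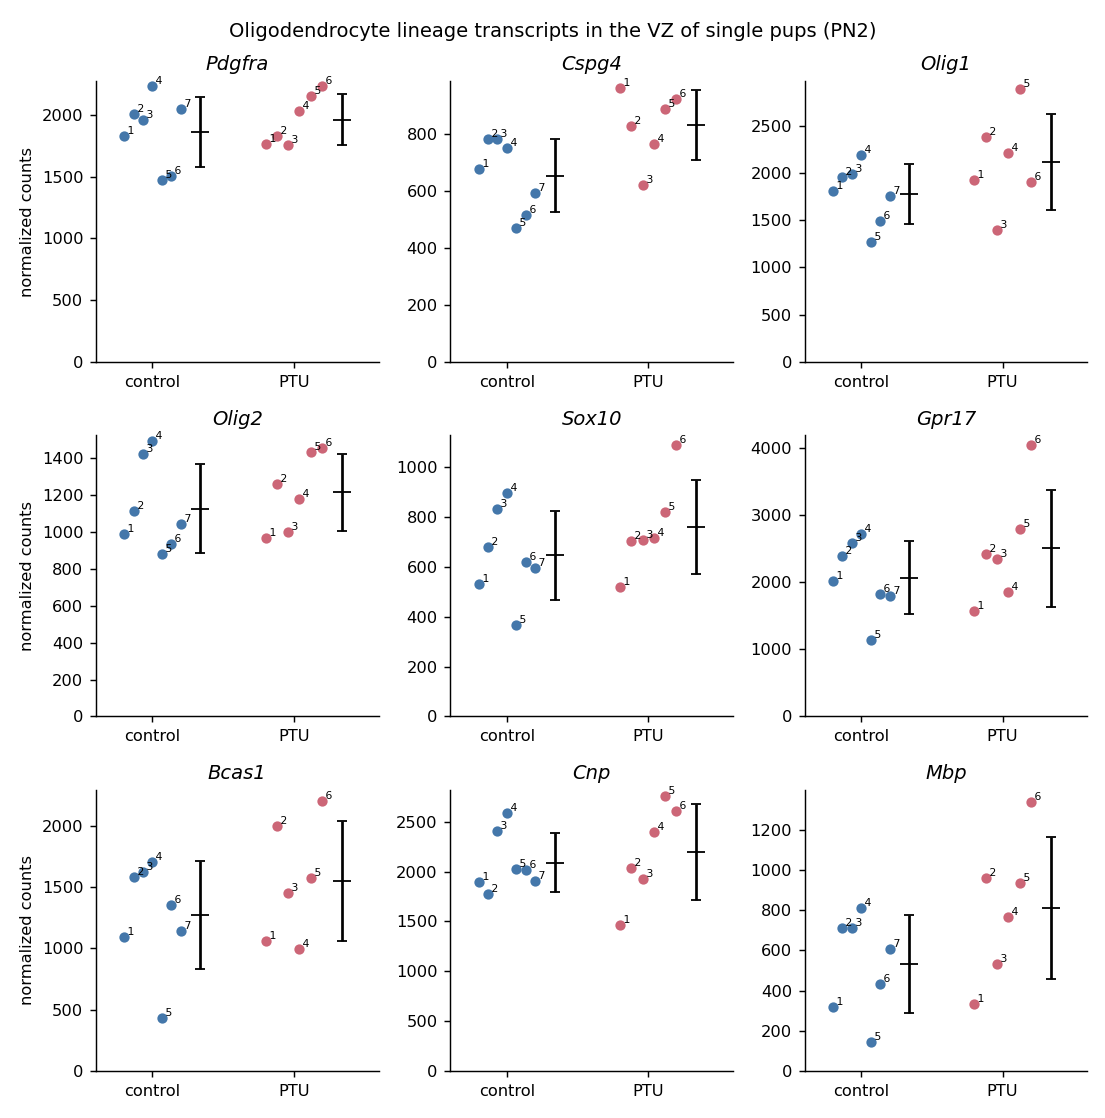
Normalized counts (vertical axis, from 0) of the 9 genes in each control pup (blue, n = 7) and PTU exposed pup (red, n = 6), with replicate numbers beside the points and the mean ± SD as bars. The groups overlap in every panel, and control pup 5 is the lowest of the 13 pups in 8 panels.

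*Pdgfra*, the receptor through which PDGF-A drives precursor division and survival, was close to equal in both groups. Its normalized counts in control pups had a lowest value of 1473, a median of 1956 and a highest value of 2235. In PTU exposed pups the lowest was 1752, the median 1930 and the highest 2235. Control pups 5 and 6 were lower than every PTU exposed pup, but only 3 of the 6 PTU exposed pups were above the control mean. Means were 1864 ± 284 (SD, n = 7) without and 1960 ± 208 (SD, n = 6) with PTU, a log2 fold change of 0.08 ± 0.11 (SE; 95% interval -0.14 to 0.30; limma adjusted p = 0.734; exact permutation test, two-sided, p = 0.471).

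*Cspg4*, which encodes the NG2 proteoglycan on the surface of precursors and also of pericytes, had the clearest separation of the 9. Normalized counts in control pups ran from 471 through a median of 679 to 784. In PTU exposed pups they ran from 623 through a median of 860 to 963. Of the 6 PTU exposed pups, 4 were above every control pup and PTU pup 3 was below the control median. The mean was 654 ± 129 (SD, n = 7) without and 832 ± 124 (SD, n = 6) with PTU, 27.2% higher. The log2 fold change was 0.36 ± 0.14 (SE; 95% interval 0.06 to 0.65), with an exact permutation p of 0.0402 (two-sided) that was not adjusted for the number of genes. The limma p adjusted over all rows was 0.233, so that the difference did not pass. Since *Cspg4* is shared with pericytes, their markers were read beside it: of 7 tested, 0 were higher at an unadjusted p under 0.05 (8.11% of all rows) and 2 were lower (8.2% of all rows). These were *Notch3*, a receptor of mural cells, at a log2 fold change of -0.41, and *Pdgfrb*, the pericyte PDGF receptor, at -0.26. By sign, 5 of the 7 markers were below 0 and 2 above it, from -0.41 to 0.22 with a median of -0.11. The part of pericytes in the *Cspg4* difference was not tested. The summed pericyte markers were 5890 to 9319 in control and 4687 to 6765 in PTU exposed pups.

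The transcription factors that specify the lineage had higher means in PTU exposed pups by less than the spread between pups. *Olig1*, which acts in precursor maturation, had normalized counts of 1266, 1807 and 2186 as the lowest, median and highest control values. The corresponding PTU values were 1392, 2068 and 2890. PTU pups 2, 4 and 5 were above every control pup, whereas PTU pup 3 was below all but 1 of them. Its log2 fold change was 0.24 ± 0.15 (SE; 95% interval -0.08 to 0.55; limma adjusted p = 0.440; exact permutation p = 0.2, two-sided).

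*Olig2*, required for the specification of oligodendrocytes, had a lowest control value of 879, a median of 1041 and a highest value of 1491. PTU exposed pups spanned 967 to 1454 with a median of 1217. No PTU exposed pup exceeded the highest control pup, and the log2 fold change was 0.12 ± 0.14 (SE; 95% interval -0.17 to 0.41; limma adjusted p = 0.692; exact permutation p = 0.438). *Sox10*, which keeps lineage identity and activates myelin genes, ran from 368 through 619 to 896 in control pups. In PTU exposed pups it ran from 520 through 712 to 1092. Only PTU pup 6 was above the control range. The log2 fold change of *Sox10* was 0.25 ± 0.19 (SE; 95% interval -0.15 to 0.65; limma adjusted p = 0.530; exact permutation p = 0.286).

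The genes of newly committed cells varied more from pup to pup. *Gpr17*, a G protein-coupled receptor that is switched on at commitment and must be switched off again for maturation, had normalized counts of 1147 to 2727 in control pups with a median of 2020. In PTU exposed pups it ran from 1568 to 4049 with a median of 2388. PTU pup 6 held the highest value and PTU pup 5 was next, while PTU pups 1 and 4 were below the control median. The log2 fold change was 0.26 ± 0.21 (SE; 95% interval -0.18 to 0.70; limma adjusted p = 0.549; exact permutation p = 0.329).

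*Bcas1*, a marker of early myelinating cells, spanned 428 to 1700 in control pups with a median of 1350. The lowest value, in control pup 5, stood well below the next control value of 1094. PTU exposed pups spanned 990 to 2201 with a median of 1510, and PTU pups 2 and 6 were above all control pups. The log2 fold change was 0.33 ± 0.27 (SE; 95% interval -0.25 to 0.91; limma adjusted p = 0.563; exact permutation p = 0.382).

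The myelin genes *Cnp* and *Mbp* differed in how widely they varied. *Cnp*, a myelin enzyme that is made from the precursor stage onward, had normalized counts of 1778, 2013 and 2585 as the lowest, median and highest control values and of 1459, 2219 and 2753 in PTU exposed pups. PTU pup 1 was the lowest of the 13 pups and PTU pup 5 the highest. Its log2 fold change was 0.05 ± 0.13 (SE; 95% interval -0.23 to 0.34; limma adjusted p = 0.873; exact permutation p = 0.717), and it was -0.017 without PTU pup 5 and -0.00065 without PTU pup 6.

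*Mbp*, the protein that compacts the myelin sheath, had the widest range of the 9. Control pups ran from 144 through a median of 605 to 810, and PTU exposed pups ran from 334 through 851 to 1339. The highest pup was 5.63 times the lowest in controls and 4.01 times in PTU exposed pups. PTU pups 2, 5 and 6 lay above every control pup, and PTU pup 1 was lower than all but 2 controls. Means were 533 ± 243 (SD, n = 7) and 812 ± 353 (SD, n = 6), 52.2% higher with PTU. This gave a log2 fold change of 0.66 ± 0.37 (SE; 95% interval -0.12 to 1.44; limma adjusted p = 0.378; exact permutation p = 0.177). Without control pup 5 it was 0.38, and without PTU pup 1 it was 0.89.

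**Figure D2:**
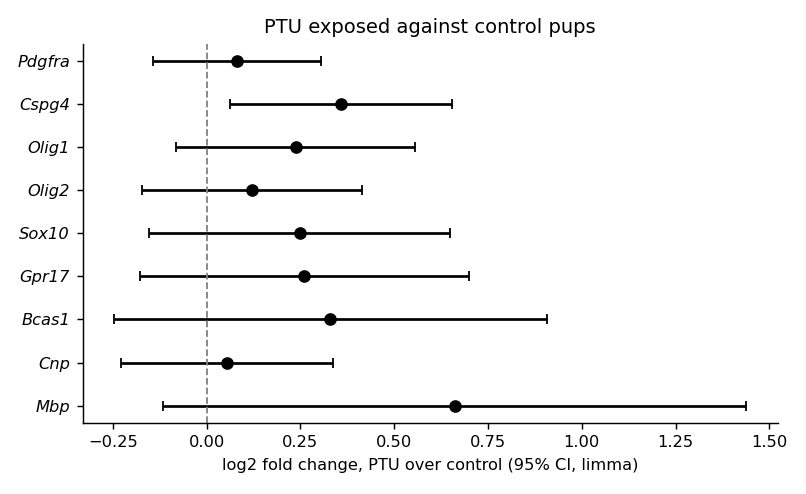
Log2 fold change of each gene (horizontal axis, PTU over control, limma) with its 95% confidence interval, 7 control against 6 PTU exposed pups, and a dashed line at 0. All 9 points lie above 0, and the intervals of 8 genes include 0, with *Cspg4* as the exception at 0.06 to 0.65 before adjustment.

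Single pups set much of the size of these differences. Without control pup 5, the log2 fold change was 0.087 for *Bcas1*, 0.12 for *Sox10*, 0.13 for *Gpr17*, 0.065 for *Olig2* and 0.027 for *Pdgfra*. Without PTU pup 6 it was 0.22 for *Bcas1*, 0.14 for *Sox10*, 0.11 for *Gpr17*, 0.065 for *Olig2* and 0.042 for *Pdgfra*. For *Olig1* it was 0.14 without PTU pup 5. *Olig2* and *Pdgfra* also moved the other way, to 0.19 and 0.13 without control pup 4, and *Cnp*, the smallest of the differences, ran from -0.017 to 0.17 over the pups left out. The value of *Cspg4* moved by less than 1.5 times whichever pup was left out.

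The spread between pups of a group increased toward the later genes, apart from *Cnp*. The SD within groups on the log2 scale was 0.20 for *Pdgfra*, 0.27 for *Cspg4*, 0.31 for *Olig1* and 0.28 for *Olig2*, against a median of 0.28 over all rows tested. It was 0.39 for *Sox10*, 0.45 for *Gpr17*, 0.60 for *Bcas1* and 0.81 for *Mbp*, but 0.27 for *Cnp*. Only 8.02% of all rows tested had a larger SD than *Mbp*, and 15.8% a larger one than *Bcas1*. Both values rested in part on control pup 5, without which the SD was 0.62 for *Mbp* and 0.38 for *Bcas1*, level with the 0.38 of *Gpr17*. These are descriptions, and no difference between SDs was tested.

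The same pups were high or low across the lineage. Control pup 5 was below its group mean for 9 of 9 genes, with a median log2 difference of -0.47 and the largest deficit, -1.70, at *Mbp*. It was the lowest of all 13 pups for 8 of 9, *Cnp* being the exception. Control pups 3 and 4 and PTU pup 5 were above their group mean for all 9, and PTU pup 3 was below for all 9. PTU pup 6 was the highest of the 13 pups for 5 genes (*Pdgfra*, *Sox10*, *Gpr17*, *Bcas1* and *Mbp*). PTU pup 1 was below its group mean for 8, with *Cspg4* as the exception. Summed markers of other cell types also differed in these pups. Control pup 5 had the lowest neuron marker sum of the 13 pups (56406) and the highest pericyte (9319) and astrocyte (52354) sums. PTU pup 1 had the highest neuron sum (125627), and PTU pup 6 had the lowest choroid plexus (23663), radial glia (82038) and astrocyte (29924) sums. The part of these other cells in the lineage values was not tested.

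**Figure D3:**
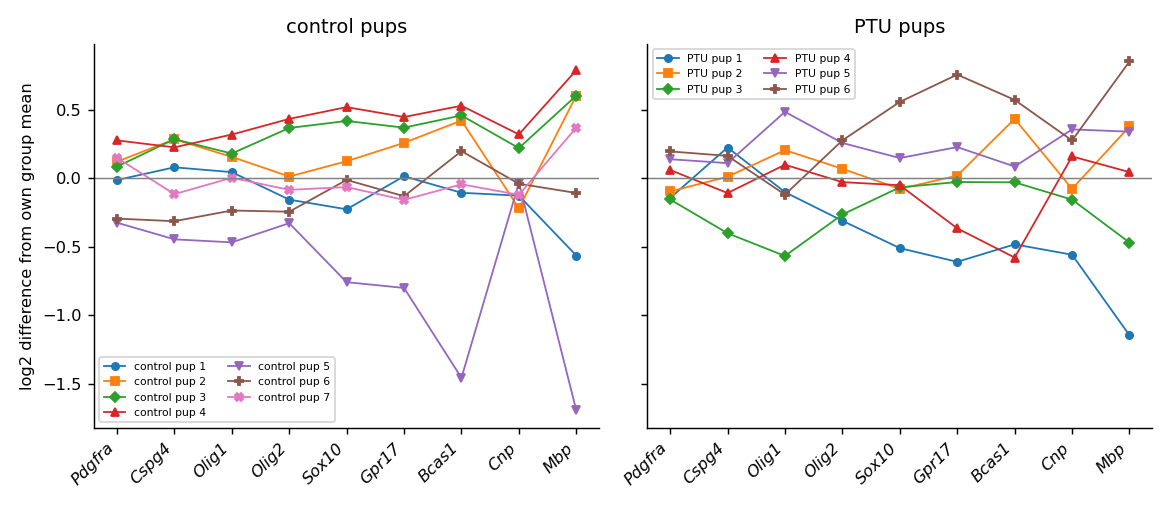
Log2 difference of each pup from the mean of its own group (vertical axis) for the 9 genes in lineage order (horizontal axis), with control pups on the left and PTU exposed pups on the right. The lines fan out toward *Mbp*, from -1.70 in control pup 5 to 0.85 in PTU pup 6, and draw together at *Cnp*.

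To measure how far the genes moved together, log2 values were centred within each group and correlated over the 13 pups for all 36 pairs. Pearson's r was above 0 for 36 of 36 pairs, beside 49.8% of all pairs of tested rows. The median r was 0.69, a value reached by 1.77% of all pairs of tested rows. With permutation p-values (100000 permutations within groups, two-sided) adjusted over the 36 pairs, 22 pairs had an adjusted p of at most 0.05 for Pearson's r and 20 for Spearman's rho. Without control pup 5 the former number was 16.

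The closest relation linked *Sox10* to *Gpr17*, at r = 0.94 (permutation p = 1e-05, the smallest that these permutations can give; adjusted p = 0.00036) and rho = 0.82 (permutation p = 0.00188; adjusted p = 0.00846). Without control pup 5 and PTU pup 6, the pups farthest from the *Sox10* median, r was 0.88. *Sox10* was related to *Mbp* at r = 0.93 (permutation p = 4e-05; adjusted p = 0.00072) and rho = 0.85 (permutation p = 0.00117; adjusted p = 0.00653), and r was 0.86 without the same pups. *Gpr17* and *Bcas1*, the genes of the committed stage, gave r = 0.89 (permutation p = 0.00015; adjusted p = 0.00135) and rho = 0.92 (permutation p = 9e-05; adjusted p = 0.00324), with r = 0.86 without these pups. Every r among *Sox10*, *Gpr17*, *Bcas1* and *Mbp* was at least 0.86.

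*Olig2* was related to all 8 other genes at an adjusted p of at most 0.05, with r from 0.66 to 0.87. *Cnp* and *Cspg4* had the fewest such relations, 2 and 3 of 8. Their own pair gave r = 0.14 (permutation p = 0.651; adjusted p = 0.651) and rho = 0.14 (permutation p = 0.634; adjusted p = 0.634), the lowest of the 36. The relation of *Cspg4* to *Olig1* had r = 0.74 (permutation p = 0.00465; adjusted p = 0.0118) and rho = 0.63 (permutation p = 0.0222; adjusted p = 0.0421), but r was 0.42 without control pup 5 and PTU pup 3, so that it rested in large part on those pups. The median r of *Cspg4* with the other 8 genes was 0.58, and 0.34 without control pup 5. For *Sox10* the corresponding values were 0.81 and 0.80, and for *Cnp* they were 0.55 and 0.65.

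**Figure D4:**
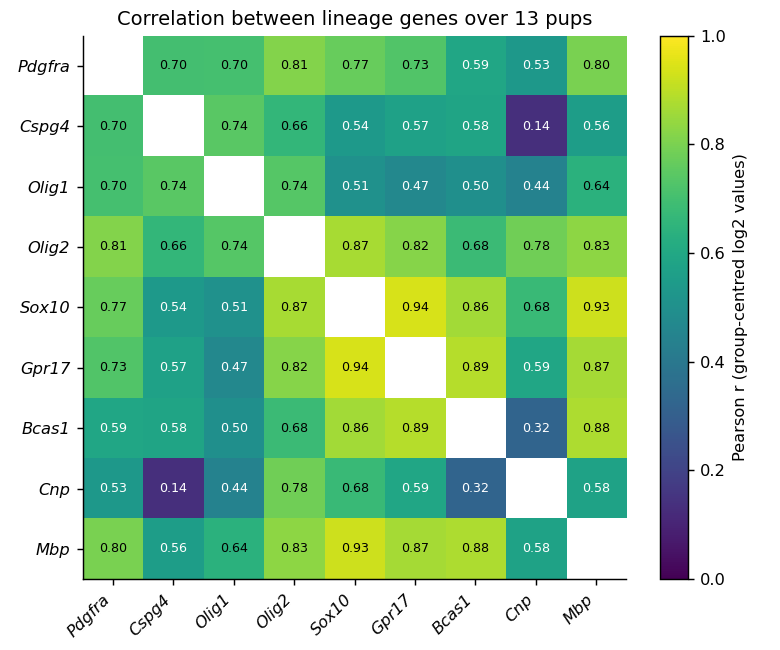
Pearson's r between the 9 genes over 13 pups, from log2 values centred within each group (colour scale from 0 to 1, r printed in each cell). The block from *Sox10* to *Bcas1*, with *Mbp*, holds the highest values, up to 0.94, and the *Cspg4* and *Cnp* rows hold the lowest, down to 0.14.

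The likeness was also read across the whole table by ranking the r of each gene with 13170 named rows. For *Olig2*, *Gpr17* and *Mbp* the row most like it was *Sox10*, and for *Sox10* it was *Gpr17*. Of the other 8 lineage genes, 8 were among the 100 rows most like *Olig2*, 6 for *Pdgfra* and 5 each for *Sox10*, *Gpr17* and *Mbp*, but 2 for *Cspg4* and 1 for *Cnp*. Outside the 9, the row most like *Gpr17* was *Tnr*, a matrix protein of precursors (r = 0.93), and for *Olig2* it was *Fa2h*, an enzyme of myelin lipid synthesis (r = 0.86). For *Pdgfra* it was *Rab3b* (r = 0.91), for *Cspg4* *Gprin2* (r = 0.87), for *Sox10* *Top3b* (r = 0.89) and for *Cnp* *Hist2h3c2* (r = 0.90). The most like rows of *Olig1* and *Bcas1* were AABR07033324.1 (r = 0.87) and AABR07021536.1 (r = 0.95). All these r values are over 13 pups and describe likeness only.

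Other genes of the pathway were read by role from 6 lists holding 99 genes, of which 85 had a row that was tested. None of the 85 passed at an adjusted p of at most 0.05 in limma. An unadjusted p under 0.05 was found for 19, 6 higher and 13 lower in PTU exposed pups (22.4%, beside 16.3% of all rows tested in either direction), and 35 of the 85 had a log2 fold change above 0.

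Of 17 myelin genes tested, 9 had a higher and 8 a lower mean in PTU exposed pups, with a median log2 fold change of 0.18. At an unadjusted p under 0.05, 3 of them were higher and 0 lower, beside 8.11% and 8.2% of all rows. Among them, *Apod*, a lipid carrier, and *Cldn11*, the tight junction protein of myelin, had log2 fold changes of 0.75 (limma adjusted p = 0.213) and 0.73 (limma adjusted p = 0.297). Of 13 genes of committed cells, 7 had a higher and 6 a lower mean, 2 and 0 of them at the same threshold. *Enpp6*, a choline phosphodiesterase of newly forming oligodendrocytes, had means of 23.9 ± 15.1 (SD, n = 7) and 58.0 ± 35.3 (SD, n = 6) normalized counts, and *Fyn*, a kinase that acts in myelin formation, had a log2 fold change of 0.20 (limma adjusted p = 0.236). The third gene named from that list by its level, *Tns3*, had a log2 fold change of -0.13.

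Of 9 factors known to hold precursors back, 3 were lower and 0 higher at an unadjusted p under 0.05. These were the Notch effectors *Hes1* (log2 fold change -0.58; limma adjusted p = 0.143) and *Hes5* (-0.57; limma adjusted p = 0.171), and *Sox6* (-0.29; limma adjusted p = 0.206). *Hes1*, *Hes5* and *Sox6* are also used by radial glia, whose 9 markers all had log2 fold changes below 0. Of 13 factors that drive the lineage, *Sox9*, a gliogenic factor shared with radial glia, was lower at this threshold, with means of 14499 ± 1088 (SD, n = 7) and 11314 ± 1712 (SD, n = 6) normalized counts (limma adjusted p = 0.132). *Zeb2* and *Nfib*, named for their level, had log2 fold changes of 0.12 and -0.15.

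Of 14 other precursor genes, 1 was higher and 3 lower at an unadjusted p under 0.05. Over all rows, 8.11% were higher and 8.2% lower. By sign, 5 of the 14 were above 0 and 9 below it, and which cells carried these differences was not tested. The matrix proteoglycans *Bcan* and *Cspg5* had log2 fold changes of -0.35 (limma adjusted p = 0.150) and -0.32 (limma adjusted p = 0.164), the xylosyltransferase *Xylt1* had -0.23, and the Notch ligand *Dll1* had 0.28 (limma adjusted p = 0.218). Of 19 ligands and receptors that act on the lineage, 6 were lower and 0 higher at this threshold, beside those shares of all rows. The 4 with the smallest p were *Fgfr1* (log2 fold change -0.42), the ligand *Pdgfc* (-0.48), the neuregulin co-receptor *Erbb2* (-0.42) and the chemokine receptor *Cxcr4* (-0.25), and their limma adjusted p lay between 0.156 and 0.217. *Pdgfa*, the main ligand of *Pdgfra*, was picked after its values were seen and had means of 125 ± 30.9 (SD, n = 7) and 133 ± 49.0 (SD, n = 6) normalized counts.

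**Figure D5:**
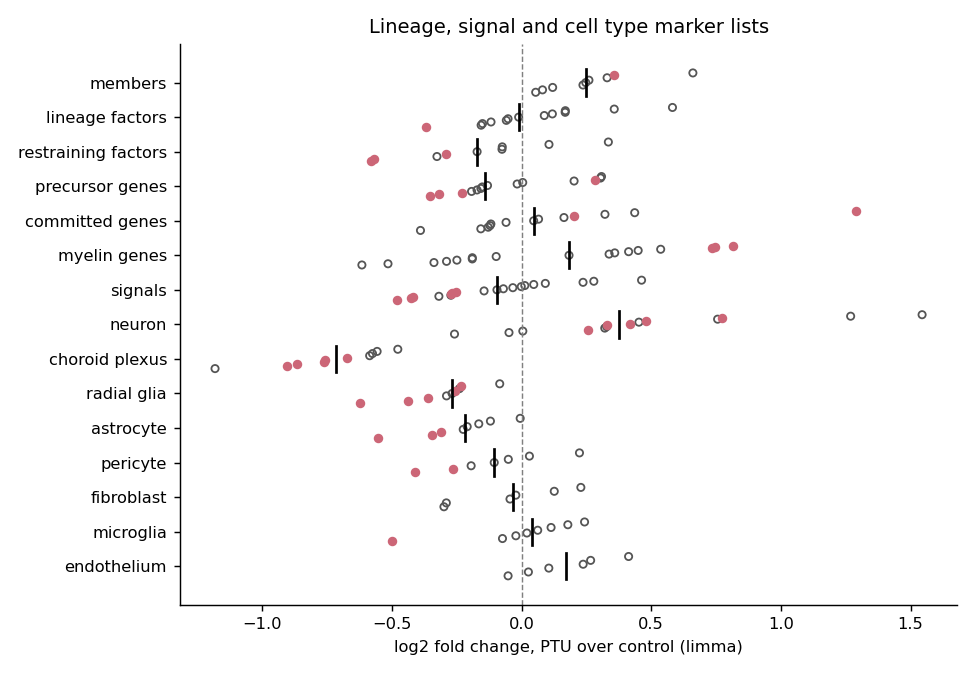
Log2 fold change (horizontal axis, PTU over control, limma) of each tested row by list, with the 9 lineage genes in the top row ("members"), black bars at the list medians and filled red points at an unadjusted p under 0.05. The 9 lineage genes lie to the right of 0 (median 0.25), as do 12 of 14 neuron markers (median 0.37) and 5 of 6 endothelium markers (median 0.17), and the choroid plexus, radial glia and astrocyte markers lie to the left.

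Markers of other cell types were read in the same libraries, and 0 of them passed adjustment in limma. The study describes the captured tissue as without choroid plexus cells, yet all 10 choroid plexus markers had counts in every pup. All 10 choroid plexus, 9 radial glia and 8 astrocyte markers had lower means in PTU exposed pups, 5, 5 and 3 of them at an unadjusted p under 0.05, and 12 of 14 neuron markers had higher means, 5 of them so. Over all rows tested 8.2% were lower and 8.11% higher at that threshold. The summed choroid plexus markers were 50764 to 142177 normalized counts in control and 23663 to 101427 in PTU exposed pups, and the summed neuron markers were 56406 to 80523 and 71762 to 125627. The astrocyte sums were 40905 to 52354 and 29924 to 45510. The choroid plexus markers with the smallest p were *Clic6*, *Ttr*, *Slc4a5* and *Aqp1*, with log2 fold changes from -0.90 to -0.76. Those of radial glia were *Hopx*, *Pax6*, *Vim* and *Nes* (-0.62 to -0.23), those of astrocytes *Aldh1l1*, *Aldoc* and *Aqp4* (-0.55 to -0.31) and those of neurons *Stmn2*, *Dcx*, *Snap25* and *Gad1* (0.26 to 0.77). Of 8 microglia markers, 5 had a log2 fold change above 0 and 3 below it, with a median of 0.04. Only *C1qa* had an unadjusted p under 0.05, at a log2 fold change of -0.50, beside -0.02 for *Csf1r*. For the endothelial genes *Kdr*, *Cdh5* and *Pecam1* the log2 fold changes were -0.05, 0.27 and 0.24, for the fibroblast collagens *Col1a2*, *Col3a1* and *Col1a1* -0.30, -0.02 and -0.04, and for the pericyte channel subunit *Abcc9* -0.05. In all, 0 of 6 endothelium and 0 of 6 fibroblast markers had an unadjusted p under 0.05. The microglia sums were 2191 to 2766 and 2025 to 2718, the endothelium sums 1782 to 2612 and 1822 to 2756, and the fibroblast sums 1242 to 5682 and 993 to 6432. No marker with a row was at 0 in any pup. For comparison, the summed normalized counts of the 9 lineage genes were 8198 to 15381 in control and 10558 to 17795 in PTU exposed pups, with medians of 11475 and 13668. The part of the captured cell mixture in the lineage difference was not tested.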

How the data were processed

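Total RNA from the laser captured VZ of 13 pups was sequenced by the authors from stranded, rRNA depleted libraries, and their methods describe the captured RNA as partly degraded. The authors trimmed reads with Trimmomatic, mapped them with STAR 2.7.8a (mRatBN7.2) and counted per transcript in Partek by expectation/maximization, a model that splits shared reads. The deposited values are these counts after median ratio scaling, a normalized signal that is never negative and not raw counts. The methods name RefSeq, whereas rows carry Ensembl identifiers. Columns of the authors' own comparison (p-value, FDR, ratio, log2 ratio, fold change and group means) were not used, and no column of a pup was left out. The labels name no batch or date. How strand was used in counting is not given in the sources used here.

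Low normalized counts advance in steps worth 1 read, which gave the reads per pup. In the range 20 to 150, 89.9 to 91.6% of values came out whole within 0.1 read, too few for a count model. Rows with a mean of at least 10 (14606 of 14716) were compared on a log2 scale with a pseudocount of 1, where changes of low rows appear too small, with limma 3.58.1 in R 4.3.3 (empirical Bayes, variance trend) and Benjamini-Hochberg adjustment over all rows at 0.05. Single genes were also compared by an exact permutation test over 1716 regroupings of the pups. Correlations used 100000 permutations within groups. Figures came from matplotlib 3.10.9 and other steps from scipy 1.17.1, pandas 2.3.3 and numpy 2.4.6 in Python 3.11.15. Tested on simulated data for this comparison, with 50 rows changed at each size, limma called 18 at a log2 change of 0.5, 43 at 1, 46 at 2 and 50 at 4, and 10 of 14406 unchanged rows.

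The genes, the 6 pathway lists and the marker lists (pericyte, fibroblast, neuron, choroid plexus, radial glia, astrocyte, microglia, endothelium) were chosen with earlier results of these data known. The rule for named genes takes all 9 genes and the row most like each. From every other list it takes up to 4 rows with the smallest unadjusted p under 0.05, filled to 3 with the highest means. Some genes that this rule names are not reported here. Listed genes without a row (*Nkx6-1*, *Olig3*, *Ptprz1*, *Lhfpl3*, *Susd5*, *Lims2*, *Mog*, *Mobp*, *Opalin*, *Gjb1*, *Qki*, *Trf*, *Fgf2*, *Shh*, *Higd1b*, *Dcn*, *Lum*, *Cldn5* and *Flt1*) were not analysed here. Alternatives were other pseudocounts, filters, scalings, weights and variance priors, each pup left out, rows summed by gene, and a block for replicate number.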

Additional observations from a re-analysis of the deposited data

How the results depend on the processing

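Across 25 alternatives, 0 of the 9 lineage genes was called in any, and 0 had groups that did not overlap under quantile, same total or TMM scaling. The number of rows called over the whole table was 0 with all pups, 40 with array weights and from 0 to 179 when a pup was left out (7 without control replicate 6 and 179 without PTU replicate 2). *Cnp* turned from 0.05 to -0.017 without PTU replicate 5 and to -0.00065 without PTU replicate 6, and leaving out 1 pup gave -0.017 to 0.17. The other 8 genes kept a log2 fold change above 0 in all 25, with *Cspg4* between 0.24 and 0.56 (adjusted p 0.2 to 0.411) and *Mbp* between 0.38 and 0.89 (adjusted p 0.223 to 0.600). The median shifted by 0.20 over all rows under equal totals for all pups, and *Pdgfra* and *Cnp* then had 0.28 and 0.26. With array weights *Olig2* and *Pdgfra* had 0.024 and 0.031. Equal totals changed the rows with an unadjusted p under 0.05 from 1185 higher and 1198 lower to 1584 higher and 81 lower. With alternatives chosen after seeing the data, correlated pairs at an adjusted p of at most 0.05 numbered 22 with all pups, 29 with the same total, 26 after quantile normalization and 16 to 25 with a pup left out, 16 being without control pup 5.

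Replicate numbers belong to pups of different litters. Deviations of pups sharing a number correlated at 0.17, 0.20, -0.07, 0.0069, 0.11 and 0.16 for numbers 1 to 6, and 3 of 6 matched best with their own number. This is a hint of pairing from the data and not from the design. As 2 of the 6 correlations were not above 0.1 and the labels name no shared litter or day, the comparison was made without pairs. With the replicate number as a block, 18 rows and 0 of the 9 genes were called, and the log2 fold change of *Mbp* was 0.72 (limma adjusted p = 0.223).

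In simulated data 18 of 50 rows changed by 0.5 on the log2 scale were recovered and 43 of 50 changed by 1. Changes of 0.5 were thus missed more often than found. Apart from *Mbp*, the differences of the lineage genes were 0.05 to 0.36, smaller than any change simulated. The simulated rows also varied independently, whereas the lineage genes varied together. How often differences like theirs would be missed was therefore not measured.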
